A study of Mus musculus with 9 samples.

Results

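The nuclear-encoded subunits of the mitochondrial respiratory chain were examined in the infarct border zone of the mouse heart. Members were taken by gene symbol, as the genes named for subunits of NADH dehydrogenase (Nduf), succinate dehydrogenase (Sdh), the cytochrome bc1 complex (Uqcr and Cyc1), cytochrome c (Cycs), cytochrome c oxidase (Cox4 to Cox8) and ATP synthase (Atp5), leaving out symbols of pseudogenes. This gave 90 of the 53465 genes in the count tables: 38 of complex I, 4 of complex II, 9 of complex III, 21 of complex IV, 17 of complex V and Cycs. Of these, 4 (Ndufa11b, Ndufb4c, Ndufs6b and Cox6c2) carry no pseudogene symbol but are annotated as processed pseudogenes, and were kept. Ndufa4 and Ndufa4l2 were placed in complex IV, where NDUFA4 is a subunit in spite of its name. The mice were of the immunodeficient strain NOD-SCID, and their heart RNA was sequenced in 3 groups of 3 libraries: sham surgery, coronary artery ligation, and coronary artery ligation followed by implantation of FOXO3-GE-MPCs (the cell group below). The labels give neither the age of the mice nor the time of sampling, and they name the infarct border zone for the sham hearts too. Ligation against sham asks what infarction did to these genes, and the cell group against ligation asks what differed once cells were implanted. No group is labelled as given a mock injection or other cells. The injection, the presence of cells and the kind of cell therefore cannot be told apart.

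The respiratory chain sits in the inner mitochondrial membrane. Complexes I and II pass electrons from NADH and succinate to ubiquinone, complex III passes them to cytochrome c, complex IV passes them to oxygen, and complex V uses the proton gradient built along the way to make ATP. The heart draws most of its ATP from this chain, and several complex IV subunits exist in a form made in heart and skeletal muscle and a form made in most other tissues. A few core subunits of complexes I, III, IV and V are encoded by mitochondrial DNA, and all others are encoded in the nucleus and imported.

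Each library held between 4549268 and 7515052 counts in genes, and the median member had 538 CPM (gene counts scaled to a common library size) in sham. Of the 90 members, 87 passed the filter on low counts. Ndufa11b and Cox8c had no count in any library and Cox7b2 stood at a mean of at most 0.347 CPM in any group, and these 3 were not tested. Sham replicates 1 and 2 carry the same stem in their column headers, as do ligation replicates 2 and 3, and nothing in the labels states that the libraries are separate animals. The p-values therefore measure the spread between these libraries, which may be technical in part, and counts are also given with the libraries of a shared stem summed. Myh6, the main myosin heavy chain of the adult mouse heart, stood at 10240.3 CPM in sham hearts, and the summed CPM of 14 cardiomyocyte markers was 77031, against 6.36 for 9 markers of fast skeletal muscle, whose Myh2 and Myh4 were at 0 in all sham libraries.

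Nearly the whole set was lower after ligation. With edgeR's quasi-likelihood test, 79 of the 87 tested members fell and 1, Uqcrc2, rose at an adjusted p under 0.05, where 18.0% of all 13825 tested genes fell and 20.1% rose. The members' median log2 fold change was -0.64, against 0.01 over all tested genes. Summed over all members, expression was 63967 to 65694 CPM in the sham libraries, 41539 to 45496 in the ligation libraries and 43838 to 46158 in the cell libraries, so that the ligation mean was 67.2% of the sham mean and the cell mean 68.7%. In 79 members every ligation library lay below every sham library, which held for 22.6% of all tested genes, and in 1, Uqcrc2, every ligation library lay above, which held for 25.0%. In bulk tissue, fewer cells of a type and less RNA per cell cannot be told apart.

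Several other measures moved with this fall. Of the 14 cardiomyocyte markers 9 fell and 2 rose, their median log2 fold change was -0.18, and their summed CPM went from between 75945 and 78219 in sham to between 58855 and 61505 after ligation, which is 78.4% of the sham mean and a smaller fall than that of complexes I, III, IV and V. All 8 macrophage markers rose. Of 8 fibroblast markers 6 rose and 1, Pdgfra, fell, and all 8 endothelial markers fell. The summed macrophage markers were 603 to 664 CPM in sham and 1158 to 1173 CPM after ligation, the summed fibroblast markers 2299.5 to 2355 and 4279.9 to 4376 CPM, and the summed endothelial markers 2115 to 2215 and 1389 to 1459 CPM. Of 5 erythroid markers 4 rose and 1 fell, with sums of 871 to 919 CPM in sham, 1496 to 1595 CPM after ligation and 663 to 680 CPM in the cell group. Of 4 tested markers of fast skeletal muscle 2 rose, and the sum over all 9 went from 4.81 to 8.07 CPM in sham to 12 to 16.6 CPM after ligation. Of 4 brown fat markers the 2 tested, Cidea and Ppargc1a, fell, with Ucp1 at 0 in all sham and ligation libraries, and their sum went from 92.4 to 106 CPM in sham to 72.3 to 83.1 CPM after ligation. The part of these cell types in the members' fall was not tested. Among genes averaging 100 CPM or more, short transcripts fell more than long ones, as described further below. With a trend on transcript length removed from each library, 72 members fell, 1 rose and the members' median was -0.35 (an alternative chosen after seeing the data). With library totals in place of TMM scaling, the median of all tested genes moved to 0.20 and that of the members to -0.45, with 69 lower and 1 higher. The cardiomyocyte markers then had a median of 0.01, with 6 lower and 6 higher. With the libraries of a shared stem summed, 77 members fell and none rose.

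**Figure D1:**
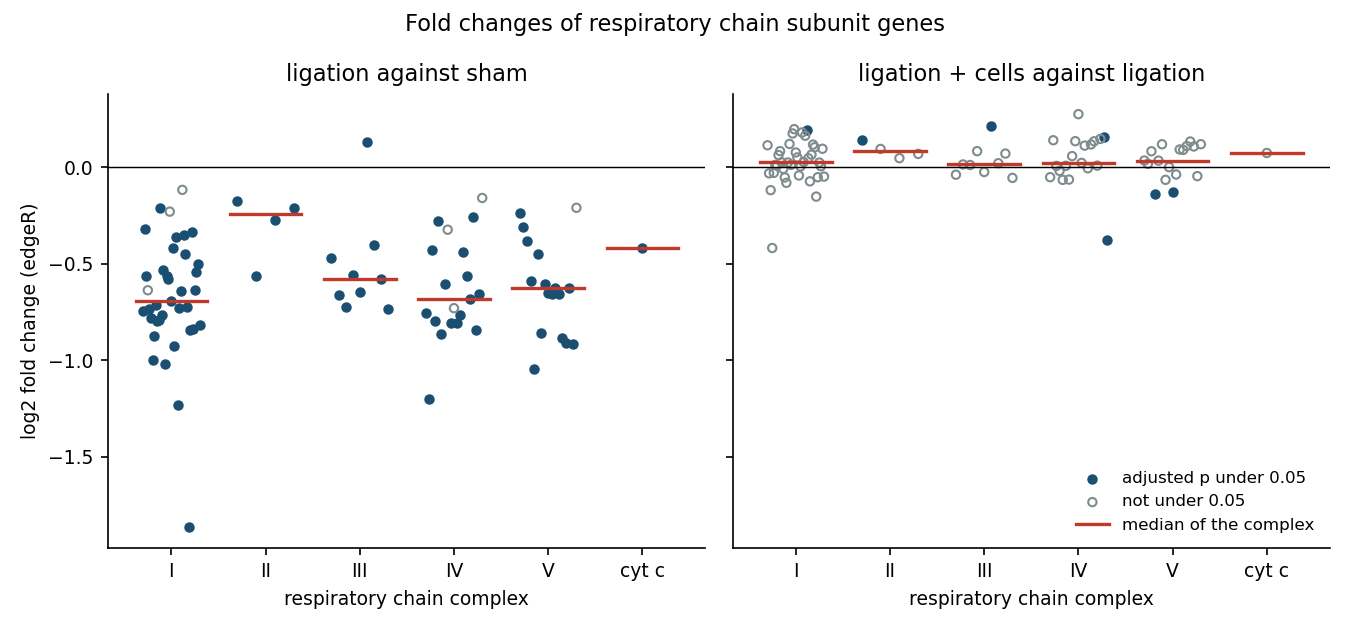
Log2 fold change of each tested member by complex (edgeR), for ligation against sham on the left and the cell group against ligation on the right. Filled points passed an adjusted p under 0.05 and red lines are the medians per complex; on the left all points but Uqcrc2 in complex III lie below 0, and on the right the medians lie between 0.01 and 0.08.

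Complex II fell least of the 5 complexes. The median log2 fold change of ligation against sham was -0.69 over 37 tested members of complex I, -0.24 over the 4 of complex II, -0.58 over the 9 of complex III, -0.68 over 19 of complex IV and -0.62 over the 17 of complex V. Summed CPM after ligation was 64.0% of sham for complex I, 79.6% for complex II, 68.6% for complex III, 60.7% for complex IV, 71.4% for complex V and 75.0% for Cycs. Complex II is the only complex with no subunit from mitochondrial DNA. These differences between complexes were not tested. The values are not corrected for transcript length, and the transcripts of the complex II genes are 1142 to 2900 bases long. The order of the complexes with the length trend removed was not examined.

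**Figure D2:**
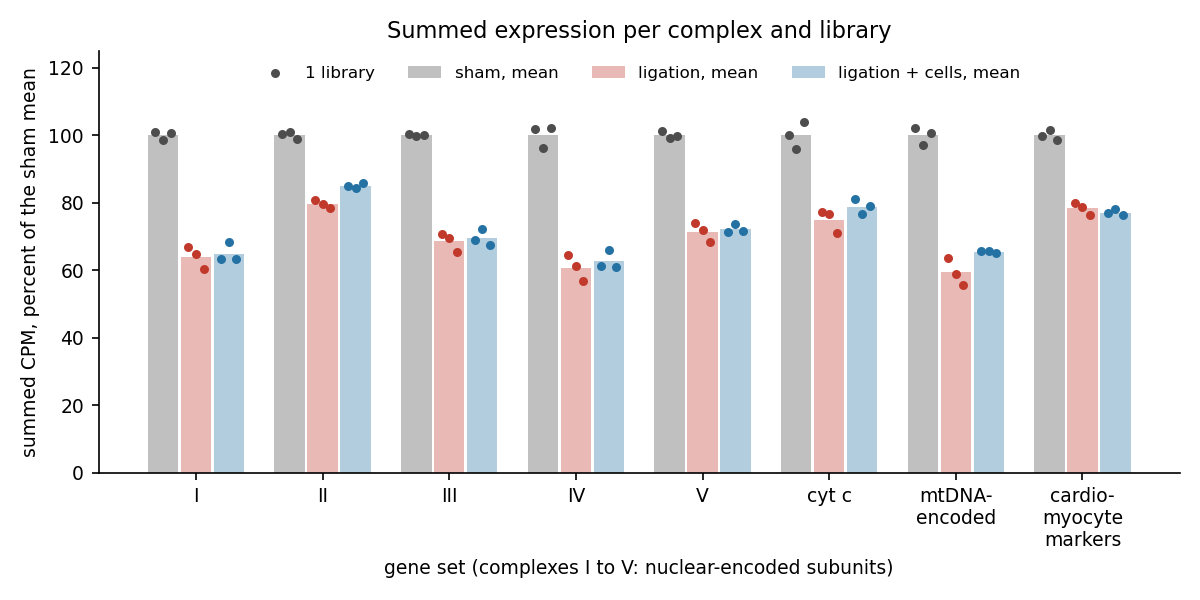
Summed CPM of each complex in every library, as percent of the mean of the 3 sham libraries, with the mitochondrially encoded subunits and 14 cardiomyocyte markers beside them. Bars are group means and points are libraries; no ligation or cell library reached the lowest sham library in any of the 8 sets.

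In complex I, 34 of 37 tested members fell and none rose. The 7 core subunits, which bind the flavin and the iron-sulfur clusters that carry electrons, had a median of -0.50, and the 6 accessory subunits of the C, S and V series a median of -0.77. Ndufs5, an accessory subunit on the intermembrane space side (chr4:123712710-123718202, minus strand in GENCODE M21), stood at 201, 207 and 207 CPM in sham libraries 1 to 3. It stood at 61.6, 63.4 and 45.4 CPM in the ligation libraries and at 54.6, 82.7 and 45.7 CPM in the cell libraries. All 6 libraries with ligation lay far below the sham libraries, and the fall of 1.86 on the log2 scale (SE 0.14, edgeR adjusted p = 1.4e-09) was the largest of any member. Of its 31-base words, 26.5% also occur in the gene BC002163, which stood at 198 ± 18.4 CPM in sham and 212 ± 7.0 CPM after ligation, and how reads common to both genes were assigned is not given in the sources used here.

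Ndufb9, an accessory subunit of the membrane arm, was the next lowest in complex I among members averaging at least 10 CPM. Its sham libraries held 335, 210.0 and 314 CPM, its ligation libraries 152, 123 and 94.5 CPM and its cell libraries 122, 172 and 121 CPM. Sham replicate 2 was the lowest sham library here and still lay above all 6 libraries with ligation, and the log2 fold change was -1.23 (SE 0.16, edgeR adjusted p = 2.8e-06). The predicted gene Gm49356, with no count in any library, overlaps 19.5% of its exon bases. Ndufs1, the largest core subunit and the carrier of several iron-sulfur clusters (chr1:63143596-63176833, minus strand), was the least changed core subunit. Its libraries held 399.7, 374 and 396 CPM in sham and 377, 361 and 341 CPM after ligation. These ranges overlap, and the log2 fold change of -0.12 (SE 0.05) did not pass at an edgeR adjusted p of 0.061. In 6 of 11 alternative fits it did pass, at log2 fold changes from -0.12 with DESeq2 (adjusted p = 0.049) to -0.15 with length offsets (edgeR adjusted p = 0.016), as it did without sham replicate 2 or ligation replicate 1, and with library totals alone it was at 0.07. The other 6 core subunits fell, the most in Ndufs7 with a log2 fold change of -0.84. Ndufa12, an accessory subunit, was uneven between libraries, with 120.1, 306 and 123 CPM in sham and 76.3, 117 and 155 CPM after ligation, and it did not pass at an edgeR adjusted p of 0.064. It passed as lower in 4 of 11 alternative fits and without sham replicate 1, sham replicate 3 or ligation replicate 3 (log2 fold changes from -0.86 to -0.92). It shares 20.7% of its 31-base words with other genes, among them Rps13. The remaining complex I member that did not pass, Ndufb4c, stood at a mean of 8.74 CPM in sham.

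All 4 genes of complex II, which is also the succinate dehydrogenase of the citric acid cycle, fell. Sdhb, the iron-sulfur subunit, held 1032, 1054 and 1025 CPM in sham and 710.4, 711 and 682 CPM after ligation, a log2 fold change of -0.56 (SE 0.04, edgeR adjusted p = 3.1e-10). Sdha, the flavin subunit with the succinate site (chr13:74322254-74350280, minus strand), held 872, 887 and 863 CPM in sham and 779, 772 and 775 CPM after ligation, a log2 fold change of -0.17 (SE 0.04, edgeR adjusted p = 0.00081). The membrane anchors Sdhc and Sdhd bind ubiquinone and heme. Sdhc changed by -0.27 (SE 0.04, edgeR adjusted p = 1.6e-05), from 582 ± 5.94 to 481 ± 6.71 CPM, and Sdhd by -0.21 (SE 0.05, edgeR adjusted p = 0.0031), from 387 ± 15.3 to 335 ± 16 CPM (mean ± SD, n = 3). The ligation and sham libraries of all 4 genes were apart. The partners did not fall alike: the CPM of Sdha was 84.3% ± 0.191 of that of Sdhb in sham, 111% ± 2.61 after ligation and 114% ± 3.44 in the cell group (SD, n = 3, a ratio chosen after seeing the values). The transcripts of Sdha and Sdhb are 2900 and 1142 bases long, and the part of length in this difference was not tested. With library totals alone, 3 of the 4 calls were lost: the log2 fold change was 0.01 for Sdha (edgeR adjusted p = 0.79), -0.09 for Sdhc (adjusted p = 0.081) and -0.02 for Sdhd (adjusted p = 0.74). With the trend on transcript length removed, Sdhd was at -0.06 and did not pass (edgeR adjusted p = 0.4).

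In complex III, 8 of 9 members fell and Uqcrc2 rose. UQCRC1 and UQCRC2 are the paired core proteins on the matrix side of the complex, and Uqcrc1 was chosen as the partner of Uqcrc2 after its values were seen. Uqcrc1 (chr9:108936633-108949623, plus strand) held 1425, 1424 and 1417 CPM in sham, 894, 923 and 911 CPM after ligation and 899.6, 903 and 879 CPM in the cell group. Its log2 fold change of ligation against sham was -0.64 (SE 0.04, edgeR adjusted p = 1.2e-11), with no overlap. Uqcrc2 (chr7:120635176-120659524, plus strand) went the other way, with 469, 458 and 469.7 CPM in sham, 497, 533 and 500.0 CPM after ligation and 591, 598 and 585 CPM in the cell group. The 3 groups did not overlap, and the step from sham to ligation was 0.13 (SE 0.04, edgeR adjusted p = 0.019). That step was no longer past the threshold without sham replicate 2 (log2 fold change 0.12, adjusted p = 0.062), without ligation replicate 2 (0.10, adjusted p = 0.12), in a fit of the sham and ligation groups only (0.12, adjusted p = 0.061), or with the libraries of a shared stem summed (0.10, adjusted p = 0.13). The CPM of Uqcrc2 was 32.7% ± 0.534 of that of Uqcrc1 in sham, 56.1% ± 1.49 after ligation and 66.2% ± 0.459 in the cell group (SD, n = 3), a ratio chosen after its values were seen. Of the exon bases of Uqcrc2, 19.8% overlap the antisense gene Pdzd9, which stood at no more than 0.476 CPM in any library.

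The catalytic subunits of complex III and the carrier it reduces fell too. Cyc1, which holds heme c1, held 968, 999 and 929 CPM in sham and 695, 704 and 688 CPM after ligation, a log2 fold change of -0.47. Uqcrfs1, the Rieske iron-sulfur protein, held 954, 970.3 and 963 and 735, 733 and 713 CPM, a log2 fold change of -0.40. Cycs, the soluble carrier cytochrome c, held 1443, 1385 and 1501 and 1113, 1106 and 1026 CPM, a log2 fold change of -0.42; 29.4% of its 31-base words occur in other genes. All 3 fell without overlap, at edgeR adjusted p of 8.2e-09, 3.3e-08 and 9.3e-08. The 5 supernumerary subunits fell as well, with log2 fold changes from -0.56 (Uqcrb) to -0.73 (Uqcrq) and a median of -0.66. With the length trend removed Uqcrb did not pass.

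In complex IV, 16 of 19 tested members fell and none rose, and the 3 that did not pass, Ndufa4l2, Cox6b2 and Cox6c2, are among its least abundant. Per kilobase of transcript, the most abundant members of the whole set in sham hearts were the muscle forms Cox8b (3182 CPM per kb) and Cox6a2 (3059.8 CPM per kb), followed by the ATP synthase beta subunit Atp5b (2854 CPM per kb). Cox6a2, the heart and muscle form of subunit VIa (chr7:128205435-128206387, minus strand), held 2159, 1993 and 2090.3 CPM in sham, 1180.4, 1138 and 1114 CPM after ligation and 1126, 1210.0 and 1113 CPM in the cell group. Ligation and sham were far apart, with a log2 fold change of -0.86 (SE 0.04, edgeR adjusted p = 1.2e-12). Its widely expressed partner Cox6a1 held 213, 251 and 229 CPM in sham and 176, 198 and 197 CPM after ligation and fell by 0.28 on the log2 scale (SE 0.07, edgeR adjusted p = 0.0049). Cox8b, the muscle form of subunit VIII, held 1128, 1123 and 1185 CPM in sham and 668, 648 and 599 CPM after ligation (-0.84, SE 0.05, edgeR adjusted p = 5.1e-11), while its partner Cox8a fell by 0.26, from 244 ± 7.71 to 204 ± 8.3 CPM (SD, n = 3, edgeR adjusted p = 0.0004). With the trend on transcript length removed, the log2 fold changes of Cox6a1 and Cox8a were 0.10 and 0.13, and with library totals alone -0.09 and -0.07, and neither passed in either fit.

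The mixture of forms was therefore measured as the share of 1 form in the summed CPM of its set. Cox6a2 made up 91%, 88.8% and 90.1% of Cox6a in the sham libraries, 87%, 85.2% and 85% in the ligation libraries and 85.9%, 88.2% and 84.7% in the cell libraries. Cox8b made up 82.4% ± 0.687 of Cox8 in sham, 75.7% ± 0.906 after ligation and 77.4% ± 1.3 in the cell group (SD, n = 3). In both sets every library with ligation lay below every sham library (exact permutation p = 0.1 for either, two-sided, the smallest that 3 against 3 allows). In the next set the groups overlapped: Cox7a1, the muscle form of subunit VIIa, made up 70.1% ± 0.974 in sham and 69.4% ± 1.29 after ligation (exact permutation p = 0.6), both Cox7a1 and Cox7a2 having fallen, with log2 fold changes of -0.81 and -0.77. Cox4i2, the lung form of subunit IV, reached at most 1.01% of Cox4 in any library, and Cox6b2, the testis form, at most 0.511% of Cox6b. Cox4i2 itself fell from 17.3, 21.4 and 17.1 CPM in sham to 5.75, 10.1 and 7.88 CPM after ligation (-1.20, SE 0.19, edgeR adjusted p = 3.3e-05), the largest fall in the complex, next to -0.75 for the abundant Cox4i1. Among 27 comparisons of shares none could go below 0.1, and adjusted over the 27 none was below 0.27.

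**Figure D3:**
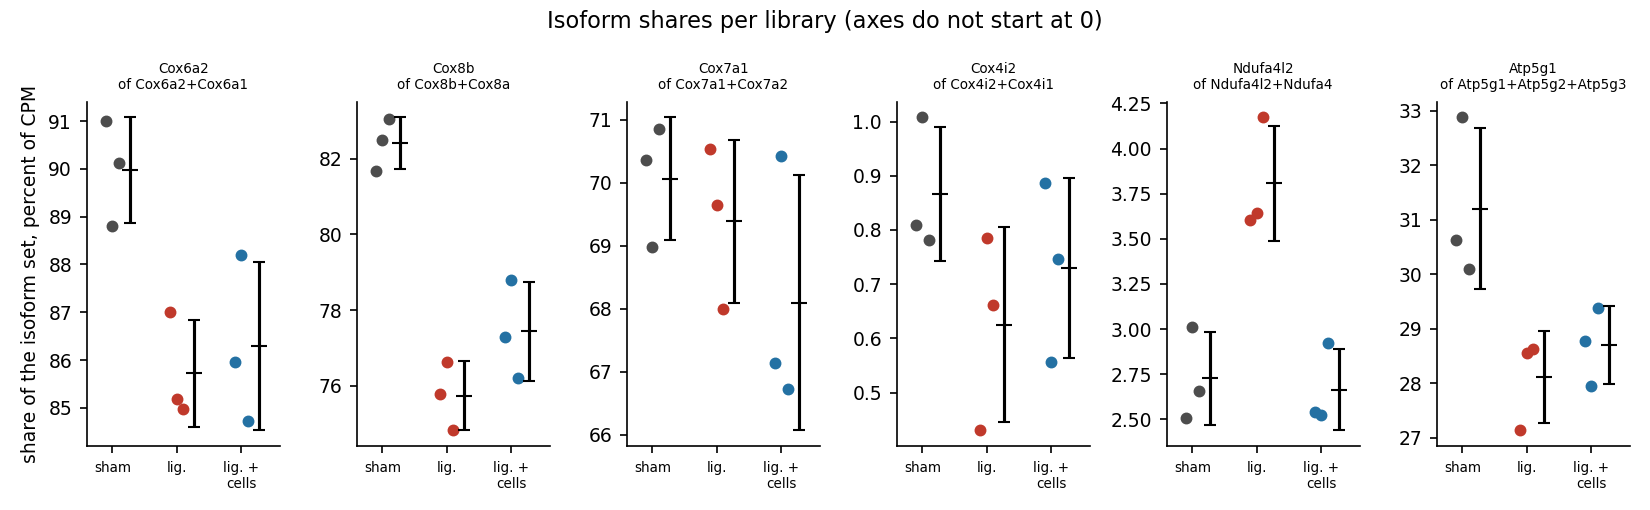
Share of 1 form in the summed CPM of its isoform set, in percent, for 6 sets in every library; bars are SD around the mean, and the axes do not start at 0. The shares of Cox6a2, Cox8b and Atp5g1 are lower in all libraries with ligation, and that of Ndufa4l2 is higher only in the ligation libraries without cells.

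In complex V, 16 of 17 members fell, and the exception was Atp5s, a coupling factor at 24.3 CPM in sham and 21 CPM after ligation. The median log2 fold change was -0.38 in the F1 head, where ATP is made, -0.64 in the peripheral stalk, -0.65 in the c-ring and -0.77 in the small membrane subunits. Atp5b, the catalytic beta subunit, held 5434, 5493 and 5479 CPM in sham and 4425, 4445 and 4344 CPM after ligation (-0.31, SE 0.03, edgeR adjusted p = 6.4e-09). Atp5a1, the alpha subunit beside it, held 3895, 3933 and 3877 and 3481, 3285 and 3174 CPM (-0.24, SE 0.03, edgeR adjusted p = 6.7e-06), the smallest fall that passed in the complex, and one that was lost with library totals alone (-0.05, adjusted p = 0.17). Atp5e, the epsilon subunit of the same head (chr2:174461072-174464105, minus strand), held 779.6, 729 and 727 and 362, 370.4 and 351 CPM and fell by 1.04 (SE 0.05, edgeR adjusted p = 2.2e-12), the largest fall in the complex. Subunits of 1 head thus fell unequally, and Atp5e was 13.6% ± 0.620 of Atp5b in sham and 8.20% ± 0.126 after ligation (SD, n = 3, chosen after seeing the values). The transcripts of Atp5e and Atp5b are 421 and 1916 bases long. The part of transcript length in this difference, and in those between the parts of the complex, was not tested. Atp5o, the stalk subunit that confers oligomycin sensitivity, fell from 961 ± 37.4 to 509.6 ± 21.4 CPM (-0.92, SE 0.05, edgeR adjusted p = 4.8e-12), and 35.6% of its exon bases overlap antisense genes.

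The c-ring protein is encoded by 3 genes that differ in their import signal. Atp5g1 held 970.3, 1061 and 916 CPM in sham and 534, 561 and 529 CPM after ligation, Atp5g2 347, 345 and 329 and 236, 237 and 199.5 CPM, and Atp5g3 1852, 1820.4 and 1799 and 1197, 1167 and 1119 CPM. All 3 fell without overlap, with log2 fold changes of -0.86, -0.61 and -0.65 (edgeR adjusted p = 1.8e-11, 1.6e-07 and 3.4e-11). The share of Atp5g1 went from 31.2% ± 1.48 to 28.1% ± 0.847, and that of Atp5g3 from 58% ± 1.39 to 60.3% ± 0.781 (SD, n = 3, exact permutation p = 0.1 for both, the smallest possible). The inhibitor of the ATP synthase, listed under its older name Atpif1 and so outside the set, stood at 60.6 ± 8.21 CPM in sham and 41.4 ± 12 CPM after ligation, a log2 fold change of -0.58 (edgeR adjusted p = 0.0039).

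In the cell group the set stayed near its level after ligation. Against ligation, 4 of the 87 tested members rose and 3 fell (edgeR, adjusted p under 0.05), where 4.19% of all tested genes rose and 5.69% fell, so that counts of this size are not particular to the members. The members' median log2 fold change was 0.03 and the largest of the 7 was -0.38; when a change of at least 25% on the linear scale was asked for as well, none rose and 1, Ndufa4l2, fell, beside 2.23% and 4.35% of all tested genes. With library totals alone the split was 2 higher and 3 lower, with the length trend removed 6 higher and 3 lower, and with the libraries of a shared stem summed 3 higher and 1 lower. Without ligation replicate 1, 8 rose, and without ligation replicate 2, ligation replicate 3, cell replicate 1 or cell replicate 2, 2 rose. The number lower was 1 without any 1 of the ligation libraries or cell replicate 3, and 0 without cell replicate 1. Ligation replicate 3 was the lowest of its 3 libraries in 72 of the 87 members, and cell replicate 2 the highest of its 3 in 65. Measured beside this, all 8 macrophage markers fell with cells, from 1158 to 1173 CPM in sum to 474 to 483 CPM, while the summed cardiomyocyte markers were 58855 to 61505 CPM in ligation and 58783 to 60118 CPM in the cell group. Against ligation, 4 of 5 erythroid markers, 3 of 4 tested markers of fast skeletal muscle and 2 of 8 fibroblast markers also fell, and 3 of 8 endothelial markers (Cldn5, Kdr and Tek) rose. Their part in the members' values was not tested.

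Uqcrc2 rose by 0.21 on the log2 scale over ligation (SE 0.04, edgeR adjusted p = 0.002), with no overlap between the CPM values given above, and passed in each of 11 alternative fits and without each of the 9 libraries. Ndufs1 rose from 377, 361 and 341 CPM after ligation to 409, 417 and 407 CPM with cells, a log2 fold change of 0.19 (SE 0.05, edgeR adjusted p = 0.012). All 3 cell libraries were above all ligation and sham libraries, and the call was lost without ligation replicate 3 (0.16, adjusted p = 0.075). Sdha rose from 779, 772 and 775 to 853, 861 and 846 CPM (0.14, SE 0.04, edgeR adjusted p = 0.018), which placed the cell group -0.03 from sham on the log2 scale (edgeR adjusted p = 0.49). Ndufa4, which sits in complex IV, rose from 837, 831 and 755 to 886, 947 and 865 CPM (0.16, SE 0.05, edgeR adjusted p = 0.039) and was at -0.50 against sham. The rise of Sdha was lost without ligation replicate 2, cell replicate 1 or cell replicate 2. That of Ndufa4 was lost without ligation replicate 2, ligation replicate 3, cell replicate 1 or cell replicate 2. Neither passed with library totals alone (edgeR adjusted p = 0.062 for Sdha and 0.069 for Ndufa4), Ndufa4 did not pass with summed stems (adjusted p = 0.072) or with replicate numbers as a block (adjusted p = 0.053), and Sdha did not pass with length offsets and the block together (adjusted p = 0.052). 

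With cells, the paralog of Ndufa4 moved the other way. Ndufa4l2, a gene known to be induced by hypoxia through HIF-1, held 33.1, 37.9 and 35.9 CPM in sham, 31.3, 31.4 and 32.9 CPM after ligation and 23.1, 24.6 and 26.1 CPM with cells. The cell libraries were the lowest of the 9, with a log2 fold change against ligation of -0.38 (SE 0.09, edgeR adjusted p = 0.011). That call was lost without ligation replicate 3 (adjusted p = 0.063), without cell replicate 1 (adjusted p = 0.059) and with DESeq2 (adjusted p = 0.084). Its share of the summed CPM of Ndufa4 and Ndufa4l2 was 2.51%, 3.01% and 2.66% in sham, 3.61%, 3.64% and 4.17% after ligation and 2.54%, 2.53% and 2.92% with cells. Each ligation library was thus above all 6 others (exact permutation p = 0.1 against either group, the smallest possible). The other 2 members that fell were the F1 delta subunit Atp5d, from 599, 589 and 587 to 525, 542 and 546 CPM (-0.14, SE 0.04, edgeR adjusted p = 0.037), and Atp5g3, from 1197, 1167 and 1119 to 1052, 1107 and 1027 CPM (-0.13, SE 0.04, edgeR adjusted p = 0.039). The Atp5d call was lost without any 1 of the ligation or cell libraries and held only when a sham library was left out. The Atp5g3 call was lost without ligation replicate 1, ligation replicate 2, cell replicate 1 or cell replicate 3. With summed stems neither passed (edgeR adjusted p = 0.071 and 0.055), nor did Atp5d with the replicate block (adjusted p = 0.055) or Atp5g3 in a fit of only the 2 groups compared (adjusted p = 0.055).

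**Figure D4:**
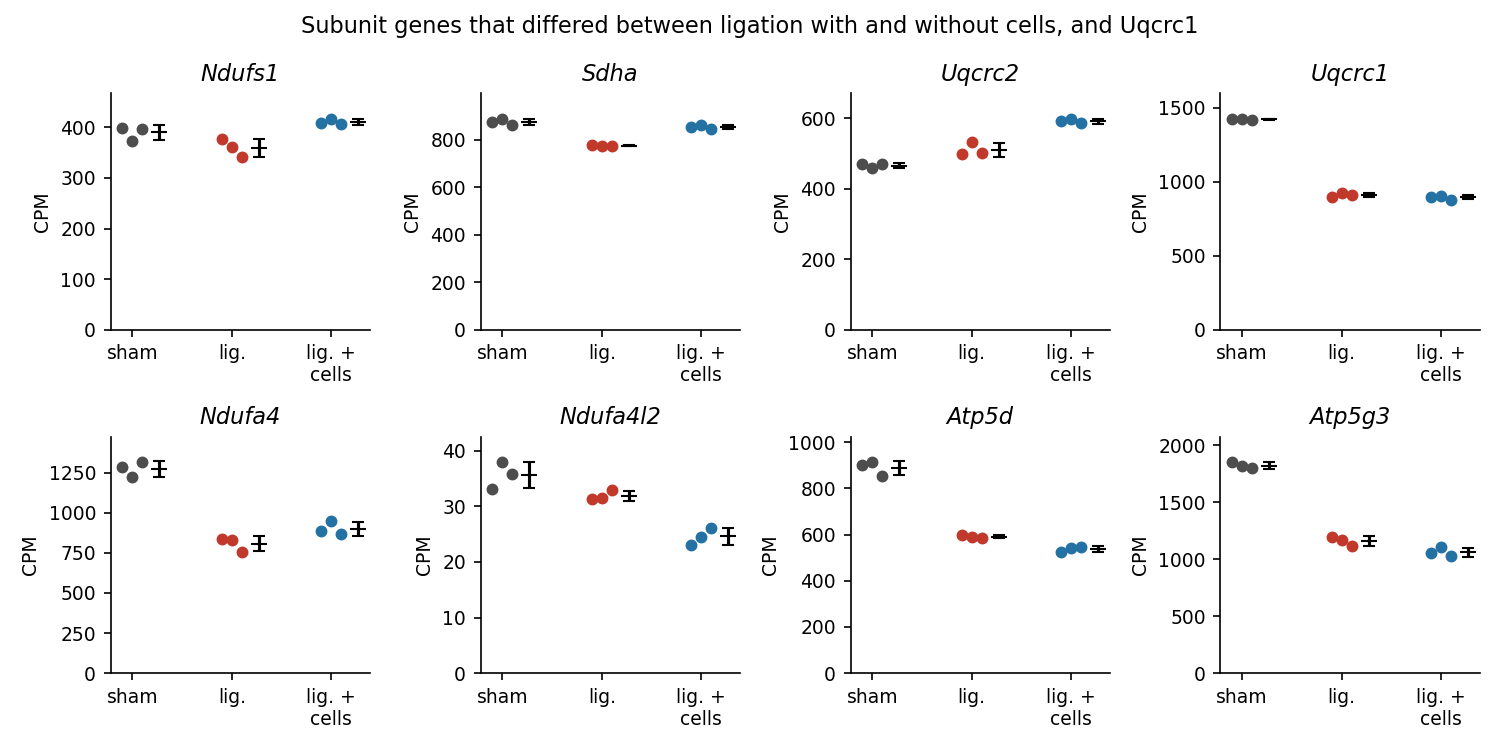
CPM of the 7 members that passed between the cell group and ligation, and of Uqcrc1, in every library, with mean and SD beside the points. Uqcrc2 is highest in the cell libraries (585 to 598 CPM) and lowest in sham (458 to 470 CPM), whereas Uqcrc1 lies between 879 and 923 CPM in all 6 libraries with ligation.

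Against sham, 80 of 87 members were lower in the cell group and 1, Uqcrc2, was higher (edgeR, adjusted p under 0.05), where 20.0% of all tested genes were lower and 21.0% higher. The median log2 fold change was -0.60 and that of each complex lay between -0.18 (II) and -0.63 (I). This comparison shares its sham libraries with that of ligation and its cell libraries with the previous one. Lower were 35 of 37 in complex I, 3 of 4 in complex II, 8 of 9 in complex III, 17 of 19 in complex IV, 16 of 17 in complex V, and Cycs. The count for complex II includes Sdhd (-0.14), whose call was lost without sham replicate 1, sham replicate 2, cell replicate 1 or cell replicate 2. The 6 members that did not pass were Ndufs1 (0.08), Sdha (-0.03), Ndufb4c, Cox6b2, Cox6c2 and Atp5s. With library totals alone 73 were lower and 3 higher: Sdhc, Sdhd, Atp5a1, Cox6a1 and Cox8a were among those no longer lower, and Ndufs1 (0.23, adjusted p = 0.00024) and Sdha (0.12, adjusted p = 0.0085) joined Uqcrc2 as higher. With the length trend removed 69 were lower and 1 higher, with Sdhd, Cox6a1, Cox8a and Ndufa4 among those no longer lower and Sdha now lower (-0.10, adjusted p = 0.028). Uqcrc2 was 0.35 higher (SE 0.04, edgeR adjusted p = 1.5e-06). With the libraries of a shared stem summed, 79 members were lower and 1 higher.

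Of the 13 subunits encoded by mitochondrial DNA, 9 fell after ligation and none rose, where 18.0% of all tested genes fell and 20.1% rose. The 4 that did not pass were mt-Nd4l (-0.32), mt-Co2 (-0.28), mt-Atp6 (0.19) and mt-Atp8 (0.09). The 13 genes had a median log2 fold change of -0.75, and their summed CPM was 59.3% of sham, while 65.5% of sham was left in the cell group. Mitochondrially encoded RNA took 19.6% ± 0.417 of gene counts in sham, 13.2% ± 0.695 after ligation and 14.3% ± 0.0366 in the cell group (SD, n = 3). With cells, 3 of the 13 rose over ligation and 1 fell, beside 4.19% and 5.69% of all tested genes, and their median was -0.08. The catalytic subunit of complex IV, mt-Co1, rose by 0.20 (edgeR adjusted p = 4.4e-07), mt-Cytb of complex III by 0.17 (edgeR adjusted p = 0.0025) and mt-Nd5 of complex I by 0.18 (edgeR adjusted p = 0.0026). The gene that fell, mt-Atp6 of complex V, changed by -1.07 (edgeR adjusted p = 0.036). Removing all mitochondrially encoded genes from the fit gave 80 nuclear members lower and 1 higher for ligation against sham.

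Factors that assemble the complexes without being part of them were read beside the subunits. After ligation 6 of 15 tested factors for complex I, 2 of 4 for complex II, 6 of 6 for complex III, 6 of 17 for complex IV and 2 of 4 for complex V were lower, against 1 higher, the complex IV factor Coa5, beside 18.0% and 20.1% of all tested genes. Their medians were -0.20, -0.58, -0.48, -0.24 and -0.26. Examples that fell were Ndufaf4 for complex I (85.2 to 49.3 CPM, log2 fold change -0.79, edgeR adjusted p = 1.3e-08) and Uqcc1 for complex III (111 to 64.2 CPM, -0.80, edgeR adjusted p = 6.2e-09). With library totals alone 15 factors were lower and 4 higher. Whether the assembly factors differ from the subunits was not tested. Against ligation the cell group had 1 factor higher, Timmdc1 of complex I (46.7 to 61 CPM, 0.39, edgeR adjusted p = 0.0035), and no factor lower. Of all tested genes 4.19% were higher and 5.69% lower, so this count is not particular to the factors. Their median over the 46 tested was 0.17 (0.14 with library totals, 0.15 with length offsets), against 0.00 over all tested genes. For each complex, the summed CPM of its factors was higher in every cell library than in every ligation library. For complex IV these sums were 838 to 855 and 753 to 787 CPM. This shift was not tested.

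Of 13 regulators of respiratory genes, 4 fell after ligation, 2 rose and their median log2 fold change was 0.01. With 18.0% of all tested genes lower and 20.1% higher, counts of this size are not particular to the list. The coactivator Ppargc1a went from 59.6 to 48.6 CPM (-0.31, edgeR adjusted p = 0.011), its partner receptor Esrra from 174 to 142 CPM (-0.29, edgeR adjusted p = 0.001) and Tfam, which packages and transcribes mitochondrial DNA, from 46.7 to 37.9 CPM (-0.30, edgeR adjusted p = 0.0071). Perm1, a muscle coactivator, also fell (-0.13), and the lipid-sensing receptor Ppara (0.55) and the mitochondrial transcription factor Tfb2m (0.36) rose. With cells, 3 of the 13 rose over ligation and 1 fell, beside 4.19% and 5.69% of all tested genes, and their median was 0.16. Their summed CPM was 727 to 740 after ligation and 786 to 818 with cells, a difference that was not tested. Tfam rose to 47.6 CPM (0.32, edgeR adjusted p = 0.012), Perm1 (0.17) and Esrrg (0.34) rose too, and Tfb2m fell (-0.22). The directions of this list moved with the scaling: with library totals alone 5 rose and none fell after ligation, with a median of 0.20, and with the length trend removed 2 rose and 3 fell. Over ligation, Perm1 and Esrrg did not pass in the cell group in either of these fits. Nrf1, Gabpa and Yy1, whose binding motifs were searched in the promoters, did not pass after ligation with TMM scaling, with log2 fold changes of -0.15, 0.16 and 0.01.

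Because 79 members moved together, their promoters were read for motifs of these factors. RefSeq windows from 250 bases before to 50 bases after the annotated start (GRCm38.p6) were matched for 69 of the 90 members and searched on both strands. The palindromic motif of NRF1, the 10 capital letters in the Uqcrc1 window, was present in 5 members (7.25%) and 1.07% of all 27025 genes with a window, CCGGAAG, for ETS factors such as GABPA, in 16 (23.2%) and 9.93%, AAGATGGCG, for YY1, in 7 (10.1%) and 1.64%, and AAGGTCA, a site for the estrogen-related receptors, in 8 (11.6%) and 5.38%. These motifs do not overlap in the windows shown, and a match is a description of the letters, not a bound site. No window was matched for Uqcrc2, Ndufs1, Cox6a2 or Ndufb9, so their promoters were not read. The windows below belong to matched members: Atp5e and Ndufs5 with the largest falls of their complexes, Atp5k, a membrane subunit of complex V chosen for its matches to 3 of the motifs, and Uqcrc1. They lie at chr4:123718137-123718436 on the minus strand for Ndufs5, chr2:174464052-174464351 on the minus strand for Atp5e, chr5:108434350-108434649 on the minus strand for Atp5k and chr9:108936398-108936697 on the plus strand for Uqcrc1. Sequences are written 5′ to 3′ on the strand of the gene, and capitals mark the matches to the motifs or their reverse complements.
Ndufs5: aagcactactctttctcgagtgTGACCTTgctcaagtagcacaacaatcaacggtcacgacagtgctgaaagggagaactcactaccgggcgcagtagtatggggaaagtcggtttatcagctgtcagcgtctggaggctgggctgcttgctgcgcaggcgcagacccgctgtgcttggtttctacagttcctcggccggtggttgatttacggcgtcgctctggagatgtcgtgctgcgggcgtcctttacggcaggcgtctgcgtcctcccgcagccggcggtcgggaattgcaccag
Atp5e: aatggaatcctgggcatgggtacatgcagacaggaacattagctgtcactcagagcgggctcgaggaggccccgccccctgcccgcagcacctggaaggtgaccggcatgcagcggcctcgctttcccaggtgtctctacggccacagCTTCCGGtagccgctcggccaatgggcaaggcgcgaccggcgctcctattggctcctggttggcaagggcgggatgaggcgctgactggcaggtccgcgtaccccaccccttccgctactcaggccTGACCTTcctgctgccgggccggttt
Atp5k: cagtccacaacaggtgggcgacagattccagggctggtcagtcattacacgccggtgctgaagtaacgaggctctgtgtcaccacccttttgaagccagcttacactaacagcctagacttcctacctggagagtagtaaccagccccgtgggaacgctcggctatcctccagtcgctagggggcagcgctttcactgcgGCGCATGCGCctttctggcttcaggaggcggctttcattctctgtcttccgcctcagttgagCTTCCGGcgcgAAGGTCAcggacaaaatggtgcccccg
Uqcrc1: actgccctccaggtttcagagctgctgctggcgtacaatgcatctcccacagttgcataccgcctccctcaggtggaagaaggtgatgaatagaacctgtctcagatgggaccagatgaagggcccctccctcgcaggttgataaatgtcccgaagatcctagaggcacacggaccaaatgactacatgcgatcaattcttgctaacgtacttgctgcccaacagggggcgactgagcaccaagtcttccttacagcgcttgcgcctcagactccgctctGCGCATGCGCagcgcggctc

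Ndufs5 holds 1 match, the receptor site in reverse, from 228 to 222 bases before the start. Atp5e holds the ETS letters in reverse from 102 to 96 bases before the start and the receptor site in reverse from 24 to 30 bases after it. Atp5k holds the palindromic NRF1 letters from 50 to 41 bases before the start, and the ETS letters and the receptor site after it. Uqcrc1 holds the NRF1 letters from 30 to 39 bases after its start. Atp5k itself went from 571, 464 and 563 CPM in sham to 338, 296 and 233 CPM after ligation (-0.89, SE 0.11, edgeR adjusted p = 2.1e-06), without overlap.

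The size of the fall followed transcript length, within the set and outside it. Over the 79 members averaging 100 CPM or more, the log2 fold change of ligation against sham rose with log2 transcript length (Pearson r = 0.546, Spearman rho = 0.551), and over 1517 other genes at that level r was 0.290 and rho 0.366. These are descriptions across genes, which share libraries and are not independent replicates. Members with transcripts under 600 bases had a median log2 fold change of -0.72 (28 genes) against -0.39 for 56 other genes of that length. From 600 to 900 bases the medians were -0.76 (21 genes) and -0.34 (110 genes), and from 900 to 1300 bases -0.56 (11 genes) and -0.22 (132 genes). From 1300 to 2000 bases they were -0.40 (13 genes) and -0.07 (283 genes), and at 2000 bases or more -0.28 (6 genes) and 0.10 (936 genes). In each of the 5 length classes the members' median was therefore the lower, with differences from -0.33 to -0.43 on the log2 scale. For the cell group against ligation r was -0.00 over the members. The part of RNA quality in this trend was not tested.

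**Figure D5:**
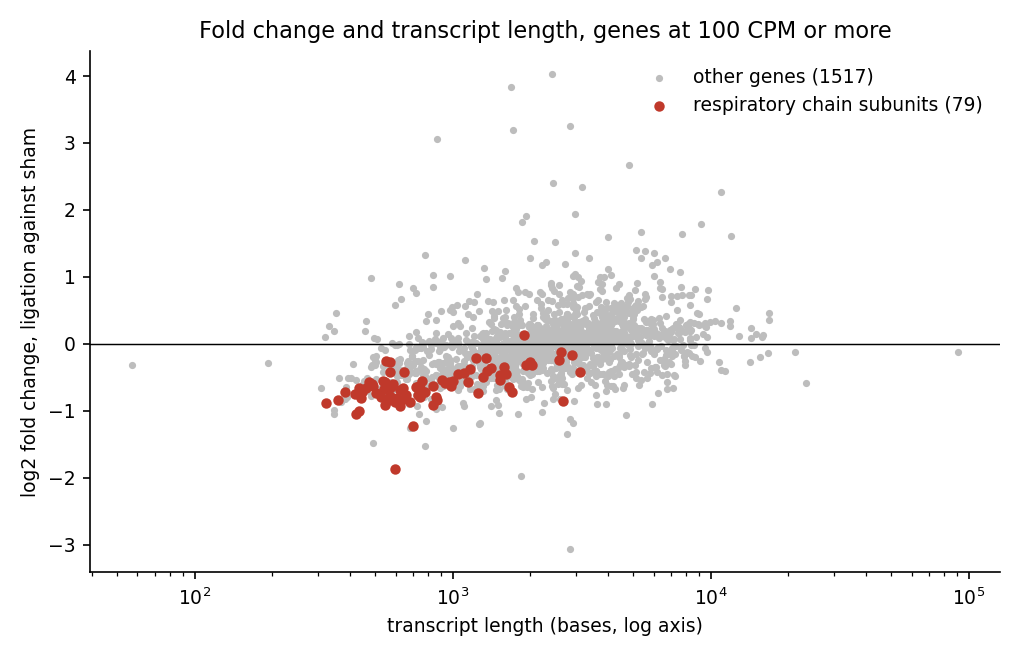
Log2 fold change of ligation against sham (edgeR) by transcript length on a log axis, for 79 members in red and 1517 other genes in grey, all averaging 100 CPM or more. Members lie in the lower part of the cloud at each length, and Uqcrc2 is the one red point above 0.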

How the data were processed

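The deposited files hold raw read counts per gene for 9 libraries, 3 per group. Per the labels, TRIzol was used to extract total RNA and the NEBNext Ultra RNA kit to build libraries. The genome build was mm10, per the submitters' processing notes. The aligner, counter, strand setting and annotation release are not given in the sources used here. The count tables' lines for reads in no gene (4.14% to 4.91% of all counted reads) and ambiguous reads (8.09% to 8.72%) were left out. Reads of overlapping genes and of near-identical copies are uncertain: 36 of the 90 members share at least 10% of their 31-base words with another gene, and exons of 29 overlap another gene. Gene symbols came from GENCODE M21.

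Genes were kept with filterByExpr, scaled with TMM, and tested in 1 model over the 9 libraries (edgeR 4.0.16, quasi-likelihood, R 4.3.3, 6 residual degrees of freedom). P-values are two-sided and adjusted over all 13825 tested genes (Benjamini-Hochberg); calls are at an adjusted p under 0.05. CPM are scaled by TMM, errors are SD over 3 libraries, and the SE of a log2 fold change is its absolute value over the root of the quasi-likelihood F. The filter on low counts kept 87 members. The scripts were tested on simulated data. Members named in the text are 33 fixed by a written rule (markers, isoform pairs, catalytic subunits, and up to 2 members with the largest changes in each direction per complex and comparison) plus ends of ranges and exceptions of counts. Uqcrc1 and Atp5k were added outside the rule with their values known. Members and lists were chosen with earlier results of these data known. Isoform shares were compared with exact permutation tests. Alternatives were library totals, RLE size factors, no mitochondrially encoded genes, no filter, DESeq2 1.42.0, limma-voom 3.58.1, only the groups compared, replicate numbers as a block, each library left out, and a change of at least 25% besides the threshold. Chosen after seeing the data were the sums of libraries with a shared header stem (7 libraries) and offsets per library from a lowess curve (span 0.3) over transcript length, taken as the median of a gene's protein-coding transcripts in the GENCODE basic set. For 2 of the 3 cell libraries, the source field of the labels names another FOXO member, while title and treatment name FOXO3, which was followed.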

Additional observations from a re-analysis of the deposited data

How the results depend on the processing

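The number of members lower was 76 to 80 for ligation against sham and 78 to 80 for the cell group against sham without single libraries, and no lower than 69 in either under any alternative. The 1 member higher after ligation was 0 in the fit of only the 2 groups compared, with libraries of a shared stem summed and at a minimum change of 25%, and 0 to 1 without single libraries. Against ligation, the 4 members higher with cells became 2 with library totals, 8 without the filter, 7 with limma-voom, 7 with DESeq2, 0 at a minimum change of 25% and 2 to 8 without single libraries. The 3 lower became 1 with summed stems, 1 at a minimum change of 25% and 0 to 3 without single libraries. The 1 higher against sham became 3 with library totals. The cause of these changes was not tested.

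Some named members changed sign in their log2 fold change. With library totals the values were Ndufa4l2 0.030, Ndufs1 0.070 and Sdha 0.014 for ligation against sham, Atp5b -0.011, Atp5g2 -0.028, Cox6a2 -0.021, Cox7a1 -0.0049, Cox8a -0.021, Uqcr11 -0.017 and Uqcrfs1 -0.0080 for the cell group against ligation, and Sdha 0.12 and Sdhd 0.017 for the cell group against sham. With length offsets they were Cox6a1 0.10, Cox6b2 0.13, Cox8a 0.13 and Ndufa4l2 0.071 for ligation against sham, Atp5g2 -0.0041, Cox8a -0.00072 and Uqcr11 -0.0021 against ligation and Cox6a1 0.024, Cox6b2 0.16, Cox8a 0.13 and Sdhd 0.012 for cells against sham; with length offsets and the replicate block, Cox6a1 0.092, Cox6b2 0.10, Cox8a 0.13 and Ndufa4l2 0.066, then Atp5g2 -0.0032, Cox8a -0.00072 and Uqcr11 -0.0018, then Cox6a1 0.023, Cox6b2 0.14, Cox8a 0.13 and Sdhd 0.012. With summed stems they were Atp5g2 -0.012, Cox6a2 -0.0029, Cox7a1 -0.016, Cox8a -0.0059 and Uqcr11 -0.0011 against ligation. Atp5g2 against ligation was -6.6e-05 without mitochondrially encoded genes and -0.0012 in the fit of only the 2 groups. Without single libraries, sign changes in the cell group against ligation occurred within these ranges: Atp5e -0.022 to 0.084, Atp5g2 -0.079 to 0.041, Cox4i2 -0.019 to 0.34, Cox6a1 -0.14 to 0.012, Cox6a2 -0.032 to 0.029, Cox6b2 -0.19 to 0.30, Cox7a1 -0.068 to 0.11, Cox8a -0.017 to 0.037, Ndufb9 -0.0087 to 0.35, Ndufs5 -0.17 to 0.28, Uqcr11 -0.060 to 0.062. For named members 63 values changed sign; among those that kept it, 55 lost a call, 25 gained one and 1937 did neither.

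Replicate numbers did not pair the libraries: deviations of same-numbered sham and ligation libraries correlated at 0.12, 0.055 and -0.12 over 9414 genes. With the replicate block 79 members were lower and 1 higher for ligation against sham, 3 higher and 2 lower against ligation, and 79 lower and 1 higher for cells against sham. Low counts limit the least abundant members. Besides Ndufa11b and Cox8c, which had no count, Cox7b2, Cox6b2, Cox6c2, Ndufb2 and Ndufb4c had means below 10 CPM. Small changes in them may not be detectable here, although Ndufb2 passed as lower after ligation. Of the exon bases of Ndufb2, 7.94% overlap other genes, and 100% of the 31-base words of Ndufb4c occur elsewhere. The part of read assignment in these low counts was not tested.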

Other observations

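Values of 2 genes outside the set, chosen after their values were seen, are given here. Ndufb1-ps, left out for the pseudogene ending of its symbol, held 243.6 ± 44.1 CPM in sham, 124 ± 23.6 CPM after ligation and 140.2 ± 31.8 CPM in the cell group (SD, n = 3), a log2 fold change of ligation against sham of -0.98 (edgeR adjusted p = 1.2e-05). Usmg5, a small membrane subunit of the ATP synthase under its older name, held 460.3 ± 40.9, 324 ± 44.4 and 348 ± 35.2 CPM, a log2 fold change of -0.51 (edgeR adjusted p = 6e-05). Both were left out of all counts above.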
